A study of Mus musculus with 10 samples.

Results

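Adipocytes are the cells that keep fat as triglyceride in a large lipid droplet, and 47 genes of this work were followed across 9 populations of mouse bone marrow origin. The genes were chosen by name for 4 roles: 14 for droplet storage, uptake and fat-cell hormones, 8 for lipolysis, 16 for synthesis and 9 regulators. A probe was named by the array annotation for 45 of the 47, of 19057 genes named on the array, and the brightest probe of a gene, by its mean over the 10 arrays, stands for the gene. Adrb3 and Acsl1 were not analysed here. Of the 45 genes, 40 were detected on at least 1 array, and Retn, Cidea, Acaca, Gpd1 and Pck1 were detected on none.

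All RNA came from cells of C57BL/6J mice whose source is given as adult bone marrow mesenchymal stem cells (MSC), the stromal cells of marrow that can form fat, cartilage and bone in culture. Undifferentiated MSC were on 2 arrays. Adipocytes, chondrocytes and osteocytes differentiated from MSC were on 1 array each, and so were 3 reprogrammed populations, 1 named after each lineage. In vivo derived osteocytes were on 1 array without and 1 array with a treatment that the labels do not name, and nothing in the labels says how reprogramming was done. Whether the MSC arrays came from separate animals or cultures is not stated, so their spread may be technical, and every other population has no replicate. Levels are given as background-corrected, quantile-normalised log2 intensities, and a gene is called detected at a detection p-value under 0.01.

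In adipogenesis, the nuclear receptor PPARG and the factor C/EBPα switch on genes for fatty acid uptake, triglyceride assembly and droplet coating. Acyl chains are added to a glycerol backbone step by step by GPAM, AGPAT2 and the DGAT enzymes. Lipases then release fatty acids again when the cell is called on for fuel, starting with PNPLA2 and LIPE.

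The RefSeq promoter table (GRCm38.p6, 250 bases before and 50 after a transcript start) held 34 of the 47 genes. Promoters are shown for the 3 droplet genes that were near or below detection in MSC and high in differentiated adipocytes, and for Elovl6, the 1 gene that was lower there. Capitals mark matches on either strand to AGGTCA, the half-site of nuclear receptors such as PPARG, or to TTGCNNAA, a core recognised by C/EBP factors, and no matches overlap.
Plin1, chr7:79732727-79733026, minus strand: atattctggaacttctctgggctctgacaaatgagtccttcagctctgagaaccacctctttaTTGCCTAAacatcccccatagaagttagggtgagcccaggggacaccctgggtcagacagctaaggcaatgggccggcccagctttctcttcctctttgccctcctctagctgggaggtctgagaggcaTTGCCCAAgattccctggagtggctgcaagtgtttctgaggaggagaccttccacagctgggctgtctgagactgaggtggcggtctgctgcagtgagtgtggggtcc
Cidec, first listed start, chr6:113435711-113436010, minus strand: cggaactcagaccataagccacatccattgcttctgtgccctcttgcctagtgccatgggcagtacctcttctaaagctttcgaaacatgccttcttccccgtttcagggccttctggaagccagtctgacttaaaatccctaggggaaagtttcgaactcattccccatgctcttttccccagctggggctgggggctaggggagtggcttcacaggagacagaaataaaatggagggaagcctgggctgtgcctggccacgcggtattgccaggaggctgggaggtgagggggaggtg
Cidec, other listed start, chr6:113434715-113435014, minus strand: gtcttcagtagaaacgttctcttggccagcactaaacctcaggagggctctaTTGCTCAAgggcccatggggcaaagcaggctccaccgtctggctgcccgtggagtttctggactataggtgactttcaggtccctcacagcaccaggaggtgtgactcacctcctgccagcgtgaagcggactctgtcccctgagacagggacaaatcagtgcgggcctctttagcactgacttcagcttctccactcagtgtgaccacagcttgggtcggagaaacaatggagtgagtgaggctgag
Adig, chr2:158502362-158502661, plus strand: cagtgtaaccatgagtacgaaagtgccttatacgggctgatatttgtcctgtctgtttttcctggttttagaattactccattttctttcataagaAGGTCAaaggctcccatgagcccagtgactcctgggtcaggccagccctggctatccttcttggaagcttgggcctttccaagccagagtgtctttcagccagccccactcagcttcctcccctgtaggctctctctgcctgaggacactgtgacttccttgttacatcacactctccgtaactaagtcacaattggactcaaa
Elovl6, chr3:129532136-129532435, plus strand: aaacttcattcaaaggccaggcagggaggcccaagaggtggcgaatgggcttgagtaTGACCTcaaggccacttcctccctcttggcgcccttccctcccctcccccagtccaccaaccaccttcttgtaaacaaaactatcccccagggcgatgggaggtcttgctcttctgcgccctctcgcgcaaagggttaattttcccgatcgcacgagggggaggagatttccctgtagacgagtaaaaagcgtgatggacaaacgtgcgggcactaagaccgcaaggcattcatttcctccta
TTGCNNAA occurred 187 and 58 bases before the start of Plin1 and 198 bases before the other start of Cidec, and AGGTCA 154 bases before the start of Adig and 193 before that of Elovl6. Over 32851 promoters of the table, 16.3% held AGGTCA and 10.8% held TTGCNNAA. The 34 genes had 47 promoters there, of which 12 held AGGTCA and 5 held TTGCNNAA. By gene, 10 of the 34 held AGGTCA and 5 held TTGCNNAA in at least 1 promoter. Counts by gene are not comparable with the shares of promoters, since some genes have several. These are matches of letters and not measured binding sites.

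Differentiated adipocytes held most of the programme. Of 45 genes, 32 were at least 2-fold above both MSC arrays and detected, where 5.25% of all genes with a probe, and 10.1% of those detected on an array compared, met that rule. Elovl6 alone was at least 2-fold below both, where 5.45% of all genes were. The median difference from the MSC mean was 2.39 over the 45 genes and 0.00 over all genes. With each array on which a gene was not detected set to its detection limit, a setting added after the data were seen, the count was 29, where 4.69% of all genes met the rule, and the median 2.11. With 1 array there is no test of this comparison, and in bulk RNA a larger share of fat cells and more RNA per cell cannot be told apart. Of the 40 genes detected anywhere, 35 had their highest value on this array, against 18.8% of all detected genes, and 7 were detected on no other array, as were 0.981% of all genes with a probe.

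**Figure D1:**
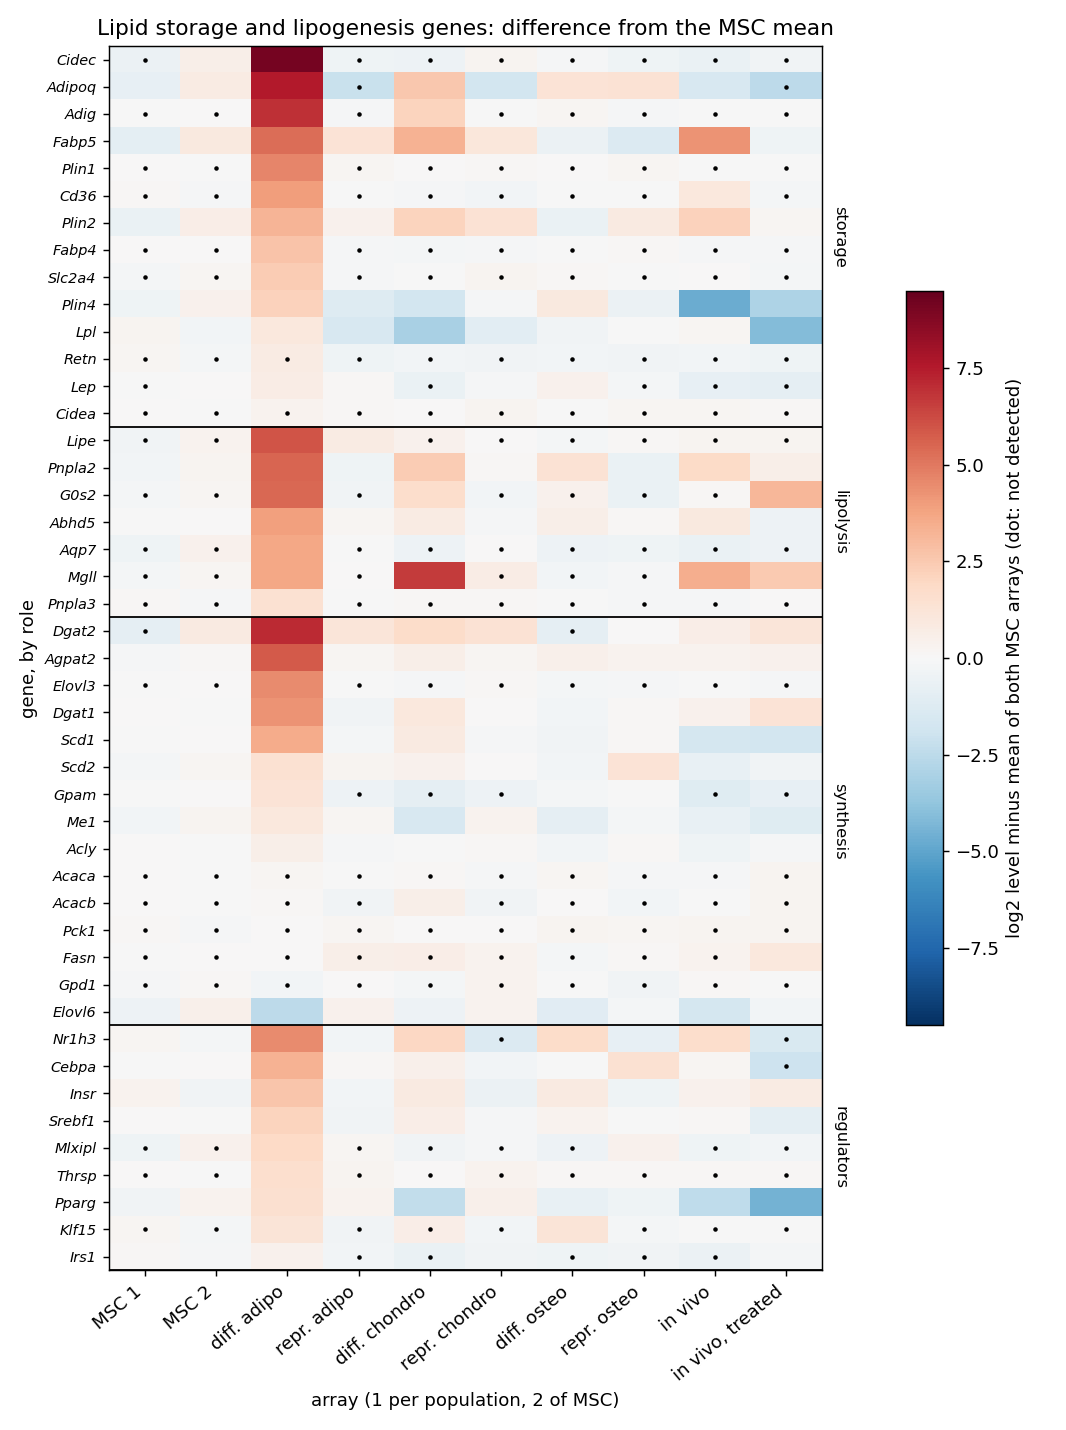
Difference of each gene (rows, by role) from the mean of both MSC arrays, in log2 units, on each of 10 arrays (columns), with a dot where the gene was not detected. Red fills the column of differentiated adipocytes, from 9.10 for Cidec down to the blue of Elovl6 at -2.49, and most rows of the reprogrammed adipocytes are pale.

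The 2 MSC arrays give the only measure of error. Over the 21 genes detected on both, they differed by a median of 0.38 log2 units, close to 0.40 over all genes detected on both. Fabp5 differed by 1.86, Adipoq by 1.50 and Plin2 by 1.32, and no other gene of the 21 by 1 or more. Where Cidec and Dgat2 are concerned, only MSC 2 gave a detected value. Each gene is therefore called higher or lower only if it lies beyond both MSC arrays. Folds and median differences against MSC are taken from the mean of both arrays.

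Fat-cell genes outside the 47 were set beside the labels of the adipocyte arrays. They were chosen with earlier results of these data known, so they are no independent check. Of 9 measured, 7 were at least 2-fold above both MSC arrays in differentiated adipocytes and the same number at least 2-fold lower in reprogrammed than in differentiated adipocytes, with summed log2 levels of 97.0 in differentiated adipocytes and 56.0 to 57.0 in MSC and reprogrammed adipocytes. Lcn2, which encodes lipocalin 2, was at 4.67 and 4.57 in MSC, not detected, and at 14.99 in differentiated adipocytes. It was also at 9.73 in differentiated chondrocytes, 9.17 in differentiated osteocytes and 7.32 in treated in vivo derived osteocytes. Of 12 stromal genes, 4 were at least 2-fold below both MSC arrays in differentiated adipocytes, and 8 were neither below nor above. The 4 were Col1a1, Col1a2, Col3a1 and Pdgfrb. Lower by that rule were 5.45% of all genes, and 10.5% of those detected on an array compared. Of the 12 stromal genes, 8 were so detected. Of 16 macrophage genes 3 were detected in differentiated adipocytes and 5 and 6 in MSC, but all 16 in differentiated chondrocytes and in in vivo derived osteocytes. Of 7 cartilage genes, 3 were detected in differentiated chondrocytes and 3 and 2 in MSC, and Acan, Matn3 and Col9a1 were detected on no array. Comp was at 13.77 in differentiated chondrocytes and not detected in MSC. Col2a1, the main cartilage collagen gene, was at 7.82 and 9.48 in MSC and 8.28 in differentiated chondrocytes, and Sox9, the cartilage factor, at 10.97 and 8.82 and at 9.41, so neither was above both MSC arrays. Col2a1 was higher in reprogrammed populations, at 11.09 in adipocytes, 10.38 in chondrocytes and 10.31 in osteocytes. Col10a1 was detected in MSC 1 and reprogrammed osteocytes.

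Of 7 bone genes, 3 were detected in differentiated osteocytes, 3 in in vivo derived osteocytes, 1 in treated ones and 2 and 3 in MSC, and the osteocyte genes Dmp1, Sost and Mepe were detected on no array. The osteoblast gene Bglap was at 6.95 in differentiated osteocytes, 12.24 in in vivo derived osteocytes and 6.87 in treated ones, and was not detected elsewhere. Sp7, an osteoblast factor, was at 9.56 on both MSC arrays, 8.99 in differentiated osteocytes, 9.27 in in vivo derived osteocytes and 4.45, not detected, in treated ones. Phex was at 5.68 and 6.67 in MSC and not detected in the 3 populations of differentiated and in vivo derived osteocytes. Ibsp was at 5.11, not detected, and 5.66 in MSC, 5.87 in differentiated osteocytes and 8.87 in in vivo derived osteocytes, but also at 8.46 in differentiated chondrocytes.

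Storage genes supplied 10 of the 32, of 14 measured. Cidec encodes a protein that fuses droplets into the large droplet of a fat cell. It was at 4.50, not detected, and 5.63 on the MSC arrays, at 14.16 in differentiated adipocytes, and between 4.41 and 5.32, not detected, on the other 7 arrays. The gain was at least 376-fold. Adipoq encodes the fat-cell hormone adiponectin, and was at 6.41 and 7.91 in MSC, 14.70 in differentiated adipocytes and 5.05, not detected, in reprogrammed adipocytes. Elsewhere Adipoq was at 9.70 in differentiated and 5.44 in reprogrammed chondrocytes, 8.48 in differentiated and 8.54 in reprogrammed osteocytes, and 5.61 in untreated and 4.70, not detected, in treated in vivo derived osteocytes. Its 185-fold gain over the MSC mean in differentiated adipocytes stood far outside the gap between the MSC arrays. Reprogrammed adipocytes lay below both MSC arrays.

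Adig, for adipogenin, a small membrane protein of differentiating fat cells, was at 11.37 in differentiated adipocytes, 6.60 in differentiated chondrocytes and 4.38 to 4.61, not detected, on the other 8 arrays, including 4.42 and 4.49 in MSC. That is at least 57.3-fold. Plin1, the droplet coat protein of mature fat cells that holds lipases off the lipid, was at 9.12 in differentiated adipocytes and between 4.40 and 4.65, not detected, on the other 9 arrays. The gain of Plin1 over MSC was at least 12.0-fold. Cd36, a fatty acid uptake receptor, was at 8.63 in differentiated adipocytes, 5.67 in in vivo derived osteocytes and 4.42 to 4.75, not detected, on the other 8, for at least 8.58-fold. Slc2a4, the insulin-regulated glucose transporter, was at 7.09 in differentiated adipocytes and 4.54 to 5.00, not detected, elsewhere, for at least 2.95-fold. All 4 were thus seen on few arrays, and none was detected in MSC or in reprogrammed adipocytes.

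The fatty acid carriers Fabp4 and Fabp5 are related in sequence and were read by separate probes. Fabp4, the carrier usually taken as the fat-cell form, was at 7.30 in differentiated adipocytes and between 4.44 and 4.69, not detected, on the other 9 arrays, a gain of at least 3.42-fold. Fabp5, which many cell types express, was at 5.91 and 7.77 in MSC, 12.12 in differentiated adipocytes, 8.11 in reprogrammed adipocytes, 10.13 and 7.93 in differentiated and reprogrammed chondrocytes, 6.28 and 5.53 in differentiated and reprogrammed osteocytes, and 11.09 and 6.42 in untreated and treated in vivo derived osteocytes. Fabp5 was detected everywhere and was 39.0-fold higher in differentiated adipocytes than the MSC mean. Whether the files' probes for this pair also bind the other gene was not tested.

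Of the other droplet coats, Plin2, found on droplets of most cells, was at 7.73 and 9.05 in MSC, 11.61 in differentiated and 8.78 in reprogrammed adipocytes, 10.47 and 9.73 in differentiated and reprogrammed chondrocytes, 7.74 and 9.27 in differentiated and reprogrammed osteocytes, and 10.59 and 8.59 in untreated and treated in vivo derived osteocytes. Plin4, which coats small new droplets, was at 10.64 and 11.39 in MSC, 13.23 in differentiated and 9.78 in reprogrammed adipocytes, 9.26 and 10.87 in chondrocytes in that order, 11.92 and 10.48 in osteocytes, and 6.29 and 8.12 in vivo without and with treatment. As differences from the MSC mean in differentiated adipocytes, Plin1 stood at 4.65, Plin2 at 3.22 and Plin4 at 2.21, with Plin1 not detected in MSC. Cidec stood at 9.10, while its relative Cidea, best known from brown fat, was not detected on any array.

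Lpl, the lipase that frees fatty acids from lipoproteins outside the cell, was not among the 32. It was at 14.43 and 13.93 in MSC, 15.16 in differentiated adipocytes, 12.65 in reprogrammed adipocytes, 11.12 and 13.15 in chondrocytes, 13.86 and 14.16 in osteocytes, and 14.35 and 10.08 in vivo without and with treatment. Lpl was detected on all 10 arrays, and its difference from the MSC mean in differentiated adipocytes was 0.97 log2 units. A second Lpl probe, at 4.82 and 5.09 in MSC and 7.48 in differentiated adipocytes, gave 2.53. With the mean over detected probes, or without MSC replicate 1, Lpl was called higher and the count was 33. The hormone gene Lep, for leptin, was at 6.21 in differentiated adipocytes and at 5.46, not detected, and 5.57 in MSC. Retn, for resistin, was at 5.52 in differentiated adipocytes, below detection.

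**Figure D2:**
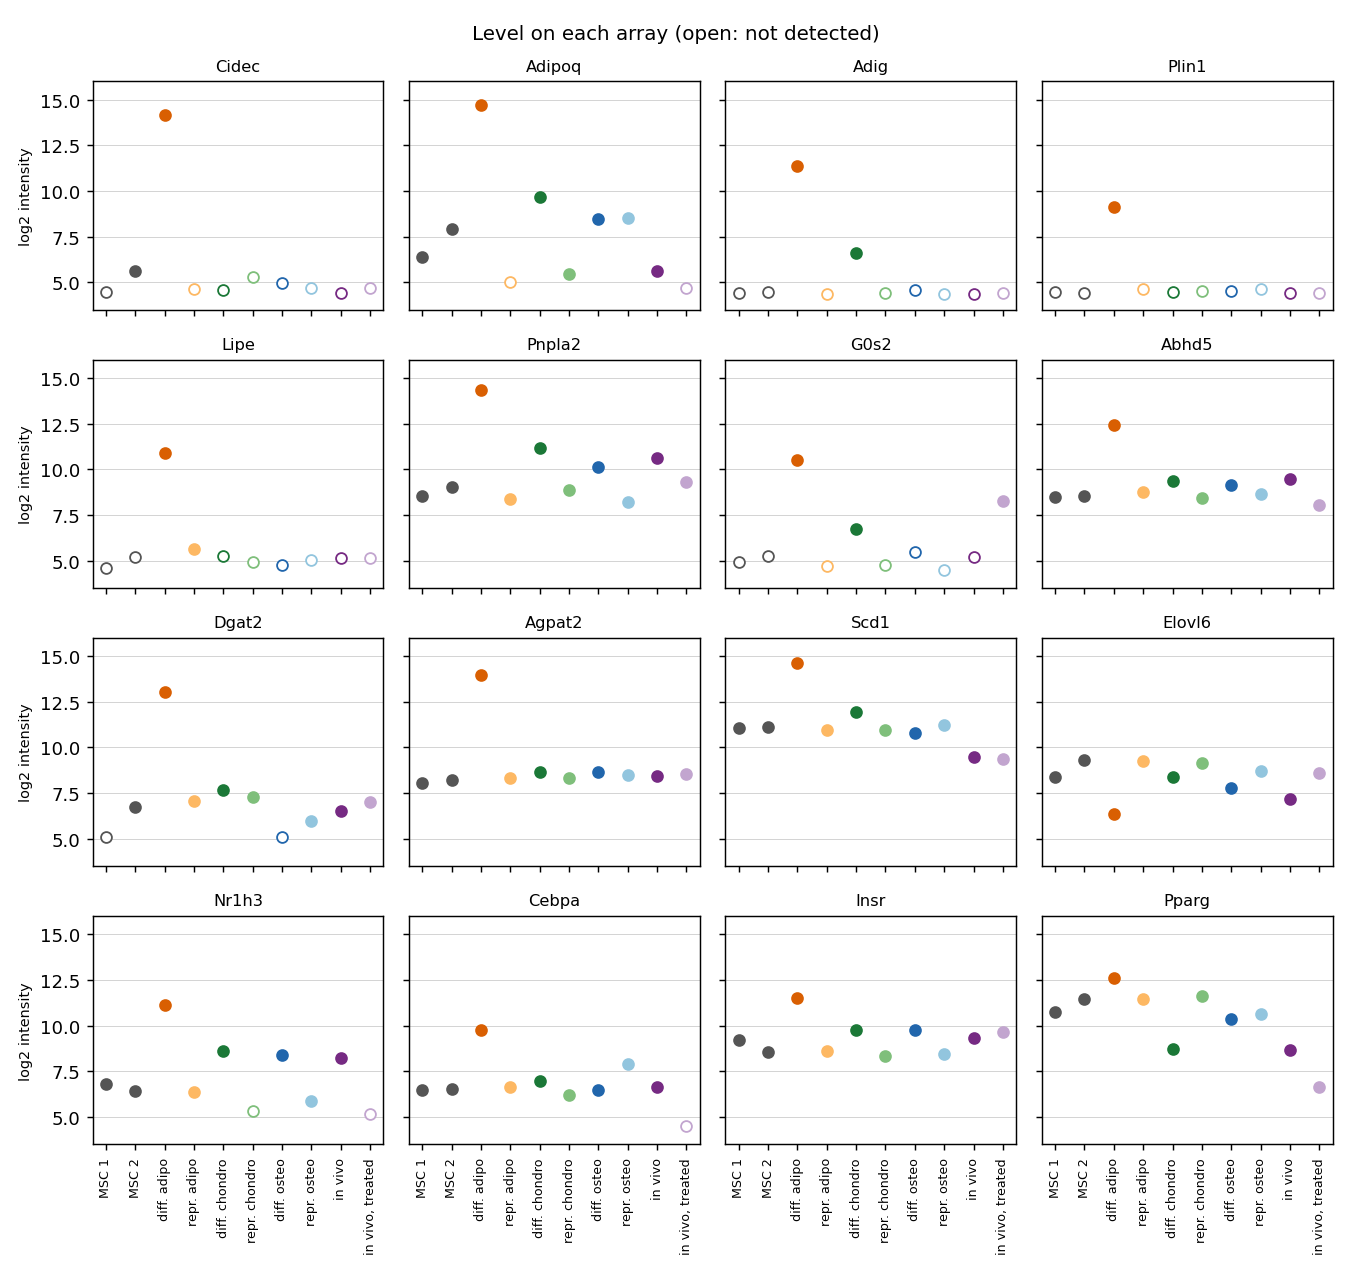
Log2 intensity (vertical axis) of 16 genes on each of 10 arrays (horizontal axis), 1 panel per gene, with open circles where a gene was not detected. Cidec at 14.16, Dgat2 at 13.03 and Lipe at 10.90 stand out in differentiated adipocytes, while Elovl6 has its lowest value there, 6.36.

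All 7 lipolysis genes measured were in the count of 32. Lipe, hormone-sensitive lipase, was at 4.60 and 5.21, not detected, in MSC, 10.90 in differentiated adipocytes, 5.66 in reprogrammed adipocytes and 4.74 to 5.28, not detected, on the other 6 arrays. Its gain was at least 41.2-fold, and reprogrammed adipocytes were the 1 other array with a detected value. Pnpla2, which takes the first fatty acid from triglyceride, was at 8.56 and 9.03 in MSC, 14.36 in differentiated and 8.38 in reprogrammed adipocytes, 11.18 and 8.88 in differentiated and reprogrammed chondrocytes, 10.15 and 8.19 in differentiated and reprogrammed osteocytes, and 10.64 and 9.32 in untreated and treated in vivo derived osteocytes. Each of the 3 differentiated populations lay above both MSC arrays, and each reprogrammed one lay near them. Differentiated adipocytes were 47.5-fold above the MSC mean.

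Both partners of PNPLA2 were higher on the adipocyte array. Abhd5, its activator, was at 8.50 and 8.56 in MSC, 12.44 in differentiated and 8.75 in reprogrammed adipocytes, 9.34 and 8.42 in chondrocytes, 9.12 and 8.64 in osteocytes, and 9.49 and 8.02 in vivo without and with treatment. G0s2, its inhibitor, was at 10.52 in differentiated adipocytes, 6.72 in differentiated chondrocytes, 8.25 in treated in vivo derived osteocytes and between 4.48 and 5.48, not detected, on the other 7 arrays. Activator and inhibitor were thus both higher than in MSC, Abhd5 by 15.1-fold and G0s2 by at least 31.8-fold. Aqp7, the glycerol channel of the fat-cell membrane, was at 8.72 in differentiated adipocytes and 4.39 to 5.44, not detected, elsewhere, for at least 9.13-fold. Pnpla3, a relative of PNPLA2, was at 5.91 in differentiated adipocytes, close to the detection limit, and not detected elsewhere, so its gain is known only as at least 1.30-fold.

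Mgll, which cleaves the last fatty acid from glycerol, was highest elsewhere. It was at 4.49 and 4.79, not detected, in MSC, 8.30 in differentiated adipocytes, 11.28 in differentiated chondrocytes, 8.08 and 7.15 in untreated and treated in vivo derived osteocytes and 4.41 to 5.33, not detected, in all 3 reprogrammed populations and differentiated osteocytes. Against MSC, Mgll was at least 6.82-fold higher in differentiated adipocytes and at least 53.7-fold higher in differentiated chondrocytes.

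Of 15 synthesis genes measured, 7 were in the count of 32, 1 was lower, 5 were not detected in differentiated adipocytes and Acly and Me1 were detected without a 2-fold difference. Dgat2, which adds the last acyl chain, was at 5.08, not detected, and 6.75 in MSC, 13.03 in differentiated adipocytes, 7.06 in reprogrammed adipocytes, 7.65 and 7.29 in chondrocytes, 5.09, not detected, and 5.96 in osteocytes, and 6.55 and 7.03 in vivo without and with treatment, a gain of at least 116-fold. Dgat1, an unrelated enzyme for the same step, was at 6.24 and 6.15 in MSC, 10.44 in differentiated and 5.83 in reprogrammed adipocytes, 7.18 and 6.23 in chondrocytes, 5.96 and 6.29 in osteocytes, and 6.61 and 7.48 in vivo. Dgat1 was 19-fold higher than in MSC, so both enzymes of this step were higher.

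Agpat2, which adds the second chain, was at 8.06 and 8.22 in MSC, 13.97 in differentiated adipocytes and between 8.34 and 8.68 on the other 7 arrays. It was 57.0-fold above MSC in differentiated adipocytes, and a second probe of Agpat2 gave a log2 difference of 5.36 beside 5.83. That probe spread more widely elsewhere, from 7.28 and 7.56 in MSC to 8.74 in differentiated chondrocytes and 8.52 and 8.58 in untreated and treated in vivo derived osteocytes. Gpam, which adds the first chain, was at 5.75 and 5.79 in MSC, 7.08 in differentiated adipocytes, 5.58 and 5.71 in differentiated and reprogrammed osteocytes and 4.60 to 5.30, not detected, on the other 5 arrays, a gain of 2.48-fold.

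Among genes of fatty acid chains, Scd1 and Scd2 encode desaturases that put in a double bond. Scd1 was at 11.07 and 11.13 in MSC, 14.62 in differentiated and 10.95 in reprogrammed adipocytes, 11.92 and 10.96 in chondrocytes, 10.80 and 11.23 in osteocytes, and 9.46 and 9.36 in vivo without and with treatment. Scd2 was at 7.33 and 7.68 in MSC, 8.92 in differentiated and 7.79 in reprogrammed adipocytes, 7.93 and 7.56 in chondrocytes, 7.24 and 8.84 in osteocytes, and 6.83 and 7.20 in vivo. As differences from the MSC mean in differentiated adipocytes, Scd1 stood at 3.52 and Scd2 at 1.42.

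The elongase genes Elovl3 and Elovl6 differed from MSC in opposite directions. Elovl3, an elongase of long saturated chains, was at 9.10 in differentiated adipocytes and 4.39 to 4.69, not detected, on the other 9 arrays, for at least 11.8-fold. Elovl6, which lengthens palmitate to stearate, was at 8.39 and 9.31 in MSC, 6.36 in differentiated and 9.24 in reprogrammed adipocytes, 8.40 and 9.15 in chondrocytes, 7.80 and 8.69 in osteocytes, and 7.18 and 8.62 in vivo without and with treatment. It was thus 5.61-fold lower in differentiated adipocytes than in MSC, and a second Elovl6 probe gave a log2 difference of -1.55 beside -2.49.

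The remaining synthesis genes showed no 2-fold gain. Acly, which makes cytosolic acetyl-CoA, stayed between 12.15 and 12.69 on 9 arrays and was at 13.12 in differentiated adipocytes. Me1, which supplies NADPH, was at 10.34 and 10.92 in MSC, 11.66 in differentiated and 10.85 in reprogrammed adipocytes, 9.11 and 10.99 in chondrocytes, 9.81 and 10.43 in osteocytes, and 9.91 and 9.46 in vivo. Its difference of 1.03 from the MSC mean is less than 1 log2 unit from MSC 2. The acetyl-CoA carboxylase genes Acaca and Acacb, the fatty acid synthase gene Fasn, Gpd1, which makes glycerol phosphate, and Pck1 were not detected in differentiated adipocytes, with values from 4.49 to 4.97 there. Fasn was detected once, at 5.60 in treated in vivo derived osteocytes, and Acacb once, at 5.44 in differentiated chondrocytes. For these 5 genes the probe gave no measured level, which is a statement on the probes used and not on the absence of the transcripts.

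Regulators made up 8 of the 32, of 9. Nr1h3, the oxysterol receptor LXRα, was at 6.80 and 6.43 in MSC, 11.12 in differentiated and 6.37 in reprogrammed adipocytes, 8.61 in differentiated and 5.32, not detected, in reprogrammed chondrocytes, 8.38 and 5.87 in osteocytes, and 8.25 and 5.19, not detected, in vivo without and with treatment. Cebpa was at 6.48 and 6.52 in MSC, 9.77 in differentiated and 6.64 in reprogrammed adipocytes, 7.00 and 6.23 in chondrocytes, 6.46 and 7.92 in osteocytes, and 6.65 and 4.51, not detected, in vivo. In differentiated adipocytes, Nr1h3 was 22.6-fold and Cebpa 9.68-fold above MSC.

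Insr, the insulin receptor gene, was at 9.20 and 8.55 in MSC, 11.50 in differentiated and 8.60 in reprogrammed adipocytes, 9.75 and 8.34 in chondrocytes, 9.74 and 8.46 in osteocytes, and 9.30 and 9.64 in vivo. The second Insr probe that was detected, on 1 array only, gave a difference of -0.14 beside 2.62. Srebf1, a factor for lipid synthesis genes, was at 6.58 and 6.45 in MSC, 8.63 in differentiated and 6.15 in reprogrammed adipocytes, 7.13 and 6.41 in chondrocytes, 6.86 and 6.51 in osteocytes, and 6.61 and 5.59 in vivo. Of the 17 genes with several probes, another probe was detected for 10, and for 9 of those every detected probe gave the same direction, Insr being the exception.

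Pparg, the central receptor of adipogenesis, was well above detection in MSC. It was at 10.73 and 11.44 in MSC, 12.62 in differentiated and 11.44 in reprogrammed adipocytes, 8.74 and 11.60 in chondrocytes, 10.37 and 10.66 in osteocytes, and 8.68 and 6.62 in vivo without and with treatment. Its gain of 2.89-fold in differentiated adipocytes was smaller than that of Cebpa, and a second detected probe gave 1.37 beside 1.53 log2 units.

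Mlxipl, Thrsp and Klf15 were each detected on 1 or 2 arrays, Thrsp and Klf15 only close to the detection limit. Mlxipl, the carbohydrate-responsive factor ChREBP, was at 4.64 and 5.39, not detected, in MSC, 6.89 in differentiated adipocytes, 5.45 in reprogrammed osteocytes and 4.54 to 5.17, not detected, on the other 6 arrays, and its second probe gave a larger difference, 3.22 beside 1.87. Thrsp, a lipogenic nuclear protein, was at 6.01 in differentiated adipocytes and 4.38 to 4.70, not detected, elsewhere. Klf15 was at 5.86 in differentiated adipocytes, 5.91 in differentiated osteocytes and 4.35 to 5.30, not detected, on the other 8 arrays. The gains of Thrsp and Klf15 over MSC are known only as at least 1.39-fold and 1.25-fold. Irs1, an adaptor of the insulin receptor, was at 5.78 and 5.57 in MSC and 6.06 in differentiated adipocytes.

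Most of these genes were lower in reprogrammed than in differentiated adipocytes. Set against differentiated adipocytes, 33 of the 45 genes were at least 2-fold lower, where 9.26% of all genes and 18.4% of those detected on either array were, and Elovl6 was at least 2-fold higher, where 9.09% of all genes were. The median difference was -2.79 over the 45 genes, or -2.50 with arrays at their detection limits, and -0.02 over all genes. This compares 1 array with 1 array and has no test. The largest differences were those of Adipoq, at least 564-fold lower, and Cidec, at least 388-fold lower. Pnpla2 was 63.0-fold, Dgat2 62.5-fold and Agpat2 49.4-fold lower, and Elovl6 was 7.35-fold higher.

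By role, the lower genes were 11 storage, 7 lipolysis, 7 synthesis and 8 regulator genes. They are the 32 that were higher in differentiated adipocytes than in MSC together with Lpl, and since both comparisons use the differentiated adipocyte array, the overlap is no separate evidence. Against MSC itself, reprogrammed adipocytes had 0 of 45 genes at least 2-fold higher, where 0.105% of all genes were, and 2 at least 2-fold lower, where 0.519% were. Those 2 were Adipoq, at least 3.04-fold lower, and Lpl, 2.88-fold lower. With undetected arrays at their limit only Lpl kept its call. The counts rest on the MSC arrays: without MSC replicate 2, 4 genes were higher, Plin2, Fabp5, Lipe and Dgat2, and 2 lower, and without MSC replicate 1, 0 were higher and 4 lower.

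**Figure D3:**
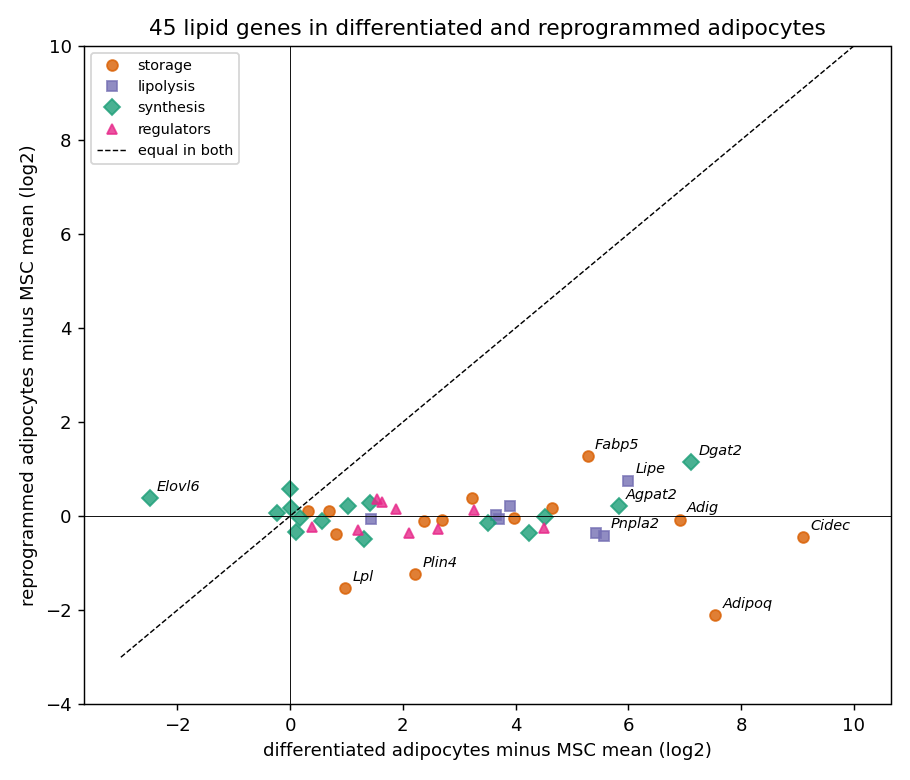
Difference from the MSC mean, in log2 units, in differentiated adipocytes (horizontal axis) and reprogrammed adipocytes (vertical axis), 1 point per gene with symbols by role and a dashed line where both would be equal. Genes spread from -2.49 to 9.10 along the horizontal axis and stay near 0 on the vertical axis, with Adipoq lowest at -2.11.

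Other genes of fat metabolism were taken from lists for each pathway. Of 31 other genes of triglyceride and droplet handling, 11 were at least 2-fold higher and 3 lower in differentiated adipocytes than in both MSC arrays, with a median difference of 0.52. Gpat3, another enzyme for the first acyl chain, was at least 47.4-fold higher, the anaplerotic enzyme gene Pcx at least 29.5-fold, the phosphatidate phosphatase gene Lpin1 14.9-fold and Fitm2, which shapes droplets, 9.32-fold. The 3 lower genes were Lpin3 and the desaturases Fads1 and Fads2. In reprogrammed against differentiated adipocytes, 13 of the 31 were lower and 4 higher. The shares of all genes for these lists are those given above, 5.25% higher and 5.45% lower against MSC and 9.26% lower in reprogrammed adipocytes.

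Fatty acid oxidation genes were higher too, 10 of 19 measured with none lower, and a median difference of 1.27. Eci1 was 6.17-fold, Cpt2 4.19-fold and Acadvl 3.31-fold higher than in MSC, and Hadha at least 4.65-fold. In reprogrammed adipocytes 14 of the 19 were lower than in differentiated ones, where 9.26% of all genes and 18.4% of those detected on either array were. Of 11 measured brown fat genes 0 were higher or lower than both MSC arrays in differentiated adipocytes. That 0 rests on 4 genes, Cox7a1, Ebf3, Cpt1b and Kng2, since the other 7 were detected on none of the 3 arrays.

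Upstream factors were mixed. Of 13 early adipogenic factors 2 were higher, Zfp423 and the PPARG partner Rxra, and Klf4 was lower. Of 12 inhibitors of adipogenesis 5 were lower and 2 higher. Klf2 was at 10.90 and 10.58 in MSC, 6.34 in differentiated and 10.31 in reprogrammed adipocytes, and Dlk1, the preadipocyte surface protein, at 10.42 and 8.56, 5.90 and 10.88 in the same order. Wnt10b and Gata2 were below detection in differentiated adipocytes and at least 4.97-fold and 7.42-fold lower there than in MSC. Ddit3 was 4.09-fold and Gata3 2.71-fold higher. In insulin signalling, 2 of 12 measured genes were higher, Irs2 by 7.69-fold and Akt2 by at least 2.51-fold. On an array compared, 12 of the 13 early factors, 11 of the 12 inhibitors and 8 of the 12 insulin signalling genes were detected. Of all genes so detected 10.1% were higher, and nothing is read from 2 higher genes in a list.

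Differentiated chondrocytes had 8 genes at least 2-fold above both MSC arrays, where 7.47% of all genes were, and 4 below, where 5.82% were. Mgll, Fabp5, Adipoq, Pnpla2, Adig, Plin2, Nr1h3 and G0s2 were the higher ones, with Fabp5 9.81-fold, Adipoq 5.81-fold, Pnpla2 5.23-fold, Plin2 4.23-fold and Nr1h3 3.99-fold higher. Lpl was 8.35-fold, Pparg 5.09-fold, Plin4 3.37-fold and Me1 2.87-fold lower. Cidec, Plin1, Fabp4 and Lipe were not detected there.

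In vivo derived osteocytes had 5 higher genes, where 7.11% of all genes were higher, and 5 lower, where 4.52% were lower. Fabp5 was 19-fold, Mgll at least 5.85-fold, Plin2 4.60-fold, Pnpla2 3.60-fold and Nr1h3 3.11-fold higher. Plin4 was 26.6-fold, Pparg 5.32-fold, Elovl6 3.18-fold, Scd1 3.12-fold and Gpam at least 1.28-fold lower. The counts of higher genes, 5 here and 8 in differentiated chondrocytes, are read against those shares, and nothing is called particular to these genes from them. The 5 higher genes were all among the 8 higher genes of differentiated chondrocytes, and both comparisons share the MSC arrays. The same overlap over all genes was not computed, so nothing about these genes is read from it.

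Macrophage genes marked the same pair of arrays. All 16 measured were detected in differentiated chondrocytes and in in vivo derived osteocytes, with median log2 levels of 12.89 and 12.77 and summed levels of 195.6 and 197.3. On each of the other 8 arrays 3 to 6 were detected, with medians from 4.55 to 4.77 and sums from 80.9 to 85.4. On these 2 arrays Fabp5, Plin2, Nr1h3, Mgll and Pnpla2 were at least 2-fold above both MSC arrays, and Plin4 and Pparg at least 2-fold below. Lpl was lower only in differentiated chondrocytes, where Cd36 was not detected. Of 9 fat-cell genes set beside the labels, 2 were higher in differentiated chondrocytes than in MSC, Lcn2 at 9.73 and Orm1 at 7.21. In in vivo derived osteocytes, 0 of the 9 were higher. Adipoq, Adig and G0s2 were at 9.70, 6.60 and 6.72 in differentiated chondrocytes. In in vivo derived osteocytes they were at 5.61, 4.39 and 5.18, Adig and G0s2 not detected. The part of macrophage or fat-cell RNA in the higher values on these arrays was not tested. The macrophage sum in differentiated adipocytes was 82.3, within the range of the MSC and reprogrammed arrays.

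**Figure D4:**
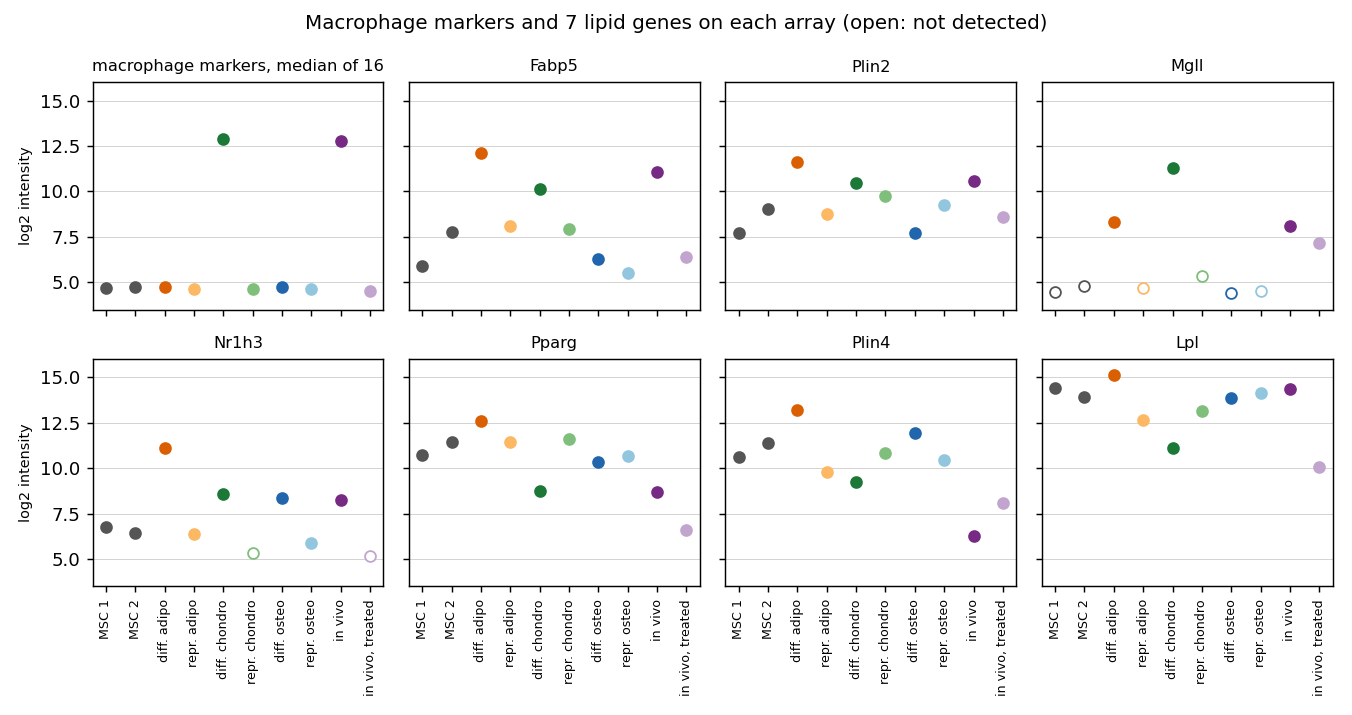
Median log2 intensity of 16 macrophage genes (first panel) and log2 intensity of 7 lipid genes (other panels) on each of 10 arrays, with open circles where a gene was not detected. The macrophage median is 12.89 in differentiated chondrocytes and 12.77 in in vivo derived osteocytes, where Fabp5, Plin2 and Mgll lie above MSC and Pparg and Plin4 below.

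Treated in vivo derived osteocytes had 3 higher genes, where 3.91% of all genes were higher, and 7 lower, where 3.98% were lower. G0s2 was at least 6.59-fold, Mgll at least 3.08-fold and Dgat1 2.44-fold higher than in MSC. Pparg was 22.0-fold, Lpl 17.2-fold, Plin4 7.42-fold and Scd1 3.34-fold lower, Adipoq at least 3.37-fold, Nr1h3 at least 2.30-fold and Cebpa at least 2.13-fold lower. Set against untreated in vivo derived osteocytes, 3 genes were at least 2-fold higher, where 7.93% of all genes were, and 10 lower, where 9.87% were. Fabp5 was 25.4-fold and Lpl 19.4-fold lower than without treatment, and G0s2 was at least 7.14-fold higher. The macrophage sum was 85.4 with and 197.3 without treatment, and its part in these differences was not tested.

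Differentiated osteocytes had 3 higher genes, where 2.59% of all genes were higher, and 0 lower, where 1.5% were lower. These were Nr1h3 at 3.39-fold, Pnpla2 at 2.56-fold and Klf15, at least 1.30-fold higher. Without MSC replicate 1, 4 genes were higher and 6 lower, and without background correction 0 and 0. Of 9 fat-cell genes outside the 47, 3 were higher on this array: Lcn2 was at 9.17, Ces1d at 7.55 and Car3 at 6.77, and their part in these values was not tested. Reprogrammed osteocytes had 2 higher, Cebpa at 2.68-fold and Scd2 at 2.52-fold, where 0.582% of all genes were higher, and 0 lower, where 0.273% were. Reprogrammed chondrocytes had 0 higher, where 0.189% were, and 1 lower, Nr1h3 at 2.39-fold or more, where 0.378% of all genes were lower. The osteocyte pair of arrays was deposited on an intensity scale of its own, with means of 324 and 413 against about 538 on the other 8 arrays, and scale and osteocyte lineage cannot be told apart.

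The change common to 3 lineages was tested by reprogrammed minus differentiated on 6 arrays with lineage as a block, by limma over all probes detected on at least 2 of these arrays. Of the 45 genes, 29 were tested and 0 passed an adjusted p of 0.05, where 0.245% of all genes tested did. At an unadjusted p under 0.05, 10 were lower and 1 higher, where 9.38% of all genes were lower and 9.86% higher. Of those 10, Adig, Mgll, G0s2 and Klf15 were detected on no reprogrammed array and entered the test only through differentiated arrays, so their direction was set by that filter, and the count supports nothing about the genes. Without the chondrocyte arrays, 1 of which carried the macrophage genes, 0 genes passed as well (smallest limma adjusted p = 0.07).

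Nr1h3 came nearest to the threshold. It was lower in all 3 reprogrammed populations, by 4.75 in adipocytes, 3.29 in chondrocytes and 2.50 in osteocytes on the log2 scale, for a mean of -3.51 (SE 0.50, limma adjusted p = 0.058). Pnpla2 was lower by 5.98, 2.30 and 1.96 in the same order (mean -3.41, SE 0.80, limma adjusted p = 0.11), and Insr by 2.90, 1.41 and 1.28 (mean -1.86, SE 0.44, limma adjusted p = 0.12). All 3 genes had the same direction in every lineage. In fits without 1 lineage, which have 1 residual degree of freedom, Nr1h3 passed without the adipocyte arrays (limma adjusted p = 0.036), and Nr1h3, Adipoq and Mgll passed without the osteocyte arrays, Mgll with no detected reprogrammed value. Fabp5, Abhd5, Mgll, G0s2, Adipoq, Adig and Klf15 made up the other 7 lower genes, with limma adjusted p from 0.14 to 0.23, and Elovl6 was the higher one at 1.50 (SE 0.51, limma adjusted p = 0.20).

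**Figure D5:**
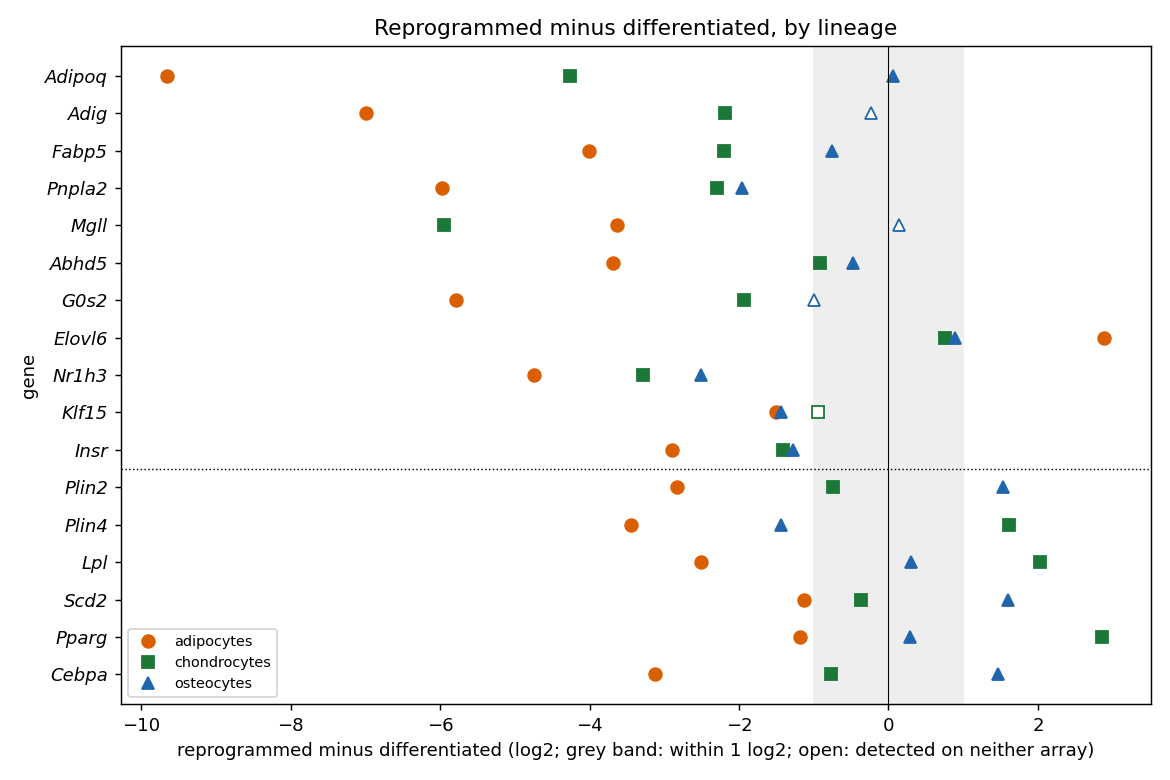
Reprogrammed minus differentiated in log2 units (horizontal axis) for 17 genes (vertical axis), 1 symbol per lineage, with a grey band for differences within 1 log2 unit and open symbols where neither array detected the gene. Above the dotted line are the 11 genes with an unadjusted p under 0.05, such as Nr1h3 from -4.75 to -2.50, and below it 6 genes whose lineages differ in direction, such as Pparg at -1.17 in adipocytes and 2.86 in chondrocytes.

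In the separate pairs, chondrocytes had 8 genes lower after reprogramming, where 11% of all genes were lower, and 4 higher, where 10.3% were higher. Mgll was at least 60.6-fold and Adipoq 19.2-fold lower, and Pparg was 7.28-fold, Lpl 4.09-fold, Me1 3.67-fold and Plin4 3.05-fold higher. Osteocytes had 5 lower, where 6.57% of all genes were lower, and 3 higher, where 4.61% were higher. Nr1h3 was 5.67-fold and Pnpla2 3.88-fold lower, and Scd2 was 3.03-fold, Plin2 2.88-fold and Cebpa 2.75-fold higher. The macrophage sum went from 195.6 in differentiated to 82.4 in reprogrammed chondrocytes, and its part in that pair was not tested.

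Against MSC, 1 fit of 8 arrays gave 30 of the 45 genes a test. Differentiated minus MSC passed for 0 of them, where 0.0301% of all genes did, and reprogrammed minus MSC for 0, where 0% of all genes did. At an unadjusted p under 0.05, Nr1h3, Klf15, Pnpla2 and Insr were higher in differentiated populations, where 3.64% of all genes were, and none was lower, where 5.25% were. Klf15 was detected on no MSC array, so its direction was set by the filter. Nr1h3 differed by 2.75 (SE 0.77, limma adjusted p = 0.32) and Pnpla2 by 3.10 (SE 1.03, limma adjusted p = 0.43). In reprogrammed minus MSC, 0 of the 30 had an unadjusted p under 0.05, where 0.361% of all genes did. These tests ask for a change shared by fat, cartilage and bone, and the large values of single arrays in differentiated adipocytes enter them as spread between lineages.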

How the data were processed

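Per the file headers, the deposited scanner table gives each of 45281 probes on 10 Illumina mouse bead arrays an intensity with its detection p-value. The authors' steps before deposit are not given in the sources used, and the deposited intensities of 8 arrays shared 1 distribution. The deposited value table held linear intensities for 8 arrays, and log2 values for the 2 osteocyte arrays. For the 8 linear columns its lines matched scanner probes by rank within 1 rank, while rho by its own IDs was -0.00745 to -0.00155. The 2 osteocyte log2 columns had rho of 0.9996 and 0.998 by ID and were placed by ID. The value table served only as an alternative, after that rank match of the linear columns.

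Samples were grouped by their labels. The neqc function of limma 3.58.1 in R 4.3.3 gave log2 values, with an offset of 16. Detected probes made up 32.9% to 37.0% of each array, and the number of arrays limits the precision. Symbols came from the platform annotation: 34885 probes had 1 symbol, 18 several and 10378 none. Tests (lmFit, eBayes) took the probes that at least 2 arrays of a fit detected, adjusted p by Benjamini-Hochberg over all of them, and were tested on simulated data. Single arrays were compared without a test: a gene counted at 1 log2 unit beyond both MSC arrays, or beyond the other array of a pair, if the brighter side detected it. Folds against arrays that did not detect a gene are written as at least that fold: such an array took the lowest log2 level of its detected probes, or its own value if higher.

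The genes and lists were chosen with earlier results of these data known. Every gene is accounted for by role. Values on each array are given for the largest differences from MSC in differentiated adipocytes within a role, and for genes 2-fold beyond MSC in another population. Up to 4 genes of a pathway list are named by size, and the few others named complete a count of 5 or fewer. Endothelial, skeletal muscle, hepatocyte and erythroid lists gave 0 of 10, 1 of 10, 1 of 6 and 0 of 3 measured genes higher in differentiated adipocytes than in MSC.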

Additional observations from a re-analysis of the deposited data

Results flagged for a closer look

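For 6 genes, reprogrammed minus differentiated went at least 1 log2 unit one way in 1 lineage and the opposite way in another, with the gene detected on the higher side. With 1 array per population, the difference between lineages was not tested for any of them. In the single pairs, 4.61% to 11% of all genes were called in a given direction. The share of all genes with opposite calls was not computed, so the count of 6 is not read as particular to these genes. Plin4 differed most between lineages, by 5.06 log2 units: it was at -3.45 in adipocytes, -1.44 in osteocytes and 1.61 in chondrocytes. Cebpa spanned 4.59, from -3.13 in adipocytes to 1.46 in osteocytes. Lpl spanned 4.54, from -2.50 in adipocytes to 2.03 in chondrocytes. Plin2 spanned 4.35, from -2.83 in adipocytes to 1.53 in osteocytes. Pparg spanned 4.04, from -1.17 in adipocytes to 2.86 in chondrocytes. Scd2 spanned 2.73, from -1.13 in adipocytes to 1.60 in osteocytes. The 3 chondrocyte gains, of Plin4, Lpl and Pparg, come from low values on the differentiated chondrocyte array, where all 16 macrophage genes were detected. The 3 osteocyte gains are from the pair deposited on another intensity scale. Neither the part of macrophage RNA nor that of the scale in these differences was tested.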

How the results depend on the processing

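The count of genes higher in differentiated adipocytes than in MSC was 32, and 25 to 33 under the 8 alternatives tried, and that of genes lower in reprogrammed than in differentiated adipocytes was 33, and 26 to 34 under 6. The lowest counts came without background correction, where Slc2a4, Pnpla3, Scd2, Gpam, Mlxipl, Thrsp and Klf15 fell short of 2-fold. No called gene changed direction in these comparisons. The calls of the 7 other populations against MSC numbered 40 in all. They numbered 23 without background correction and 56 to 61 without 1 MSC array, the higher count without MSC replicate 1. In reprogrammed minus differentiated, 0 genes passed; without the adipocyte arrays Nr1h3 passed (1 gene, limma adjusted p = 0.036), and without the osteocyte arrays 3 passed, Adipoq, Mgll and Nr1h3, so leaving out a lineage gave 0 to 3. Those fits have 1 residual degree of freedom, and Mgll was detected on no reprogrammed array. Other alternatives gave 0, with the smallest adjusted p among these genes from 0.051 to 0.21, and both tests against MSC gave 0 under all alternatives tried. Scaling to the 75th percentile raised the median of all genes by 0.40 in differentiated osteocytes against MSC and by 0.13 in reprogrammed osteocytes, where the higher calls were the same 3 genes in the former and 1 of 2, Cebpa, in the latter. The common test pairs arrays by lineage, and without that block 0 genes passed too (smallest adjusted p = 0.061). No paired analysis was possible because only the MSC labels carry replicate numbers, other than this pairing by lineage. Signal over background limits the 5 genes detected on no array and the bounds for Pnpla3, Thrsp and Klf15.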
